A study of Mus musculus with 2 samples.

Results

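The 10 germline genes described here were Dazl, Ddx4, Mael, Tdrd1, Stk31, Sycp1, Sycp3, Hormad1, Gdf9 and Tex101, taken by name from 21911 named protein-coding genes of the mouse annotation. All 10 were found. They are described as genes of germ cells with CpG promoters, and the rule that names them uses no measured value. Chromatin accessibility had been mapped by DNase-seq, in which DNase I cuts DNA that is not protected by nucleosomes, in midbrain of B6NCrl mouse embryos at 14.5 days. Male and female embryos were pooled, no genetic change or treatment is listed, and the samples formed 1 group of 2 biological replicates. Both biosamples carry the same donor entry, and how far their difference is biological or technical cannot be told from the labels.

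Germline genes serve the formation of sperm and eggs and are kept silent in most body cells. In mice, many of them have promoters that hold CpG dinucleotides and are methylated around implantation by the DNA methyltransferases Dnmt3a and Dnmt3b. A variant Polycomb complex, PRC1.6, represses many of the same genes in embryonic cells. It reaches DNA through E2F6 with its partner DP1 and through the pair MGA and MAX, which bind an E2F motif and the E-box. Most other CpG-rich promoters are free of methylation and accessible in nearly every tissue, so a CpG-rich promoter without a DNase I peak is an exception to a general rule.

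A promoter peak was one that reached within 1000 bp of an annotated start of the gene, in either direction. It was called shared when a replicate 2 peak overlapped a replicate 1 peak by at least 1 bp. Peak values are the deposited values, whole numbers up to 150 whose scale is not stated. They are given for replicates 1 and 2 in that order, rank peaks within a replicate and were not compared between replicates. Replicate 1 held 710176 peaks with a median value of 6 and replicate 2 held 267958 with a median of 51. Read depth is unknown, so the absence of a peak means that none was called, and no limit could be put on the signal below that. All 6 midbrain markers examined had shared promoter peaks, with En1 at 94 and 138 and Otx2 at 79 and 134. Their promoters had 56 (Pax5) to 184 (En2) CpG dinucleotides. Of all genes in the deciles of CpG count that hold these, 85.2% to 99.0% had a shared promoter peak. The marker count is therefore no check of the tissue.

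Promoter sequence differed among the 10 genes, but CpG count did not part those with a shared promoter peak from those without. The sequences are the 200 bases before the annotated 5' end of 5 of them, 5' to 3' on the gene's strand, with every CG dinucleotide in capitals (mm10, sequence of RefSeq's GRCm38.p6). They show an accessible promoter (Tdrd1), promoters without a peak in either replicate (Mael, Sycp1), the promoter with the most CpG (Dazl) and that with the fewest (Tex101).
Tdrd1 (chr19:56826009-56826208, plus strand): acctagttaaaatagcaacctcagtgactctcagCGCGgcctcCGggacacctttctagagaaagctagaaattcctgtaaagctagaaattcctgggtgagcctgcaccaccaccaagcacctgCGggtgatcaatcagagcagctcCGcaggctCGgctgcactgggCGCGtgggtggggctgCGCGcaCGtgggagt
Mael (chr1:166238748-166238947, minus strand): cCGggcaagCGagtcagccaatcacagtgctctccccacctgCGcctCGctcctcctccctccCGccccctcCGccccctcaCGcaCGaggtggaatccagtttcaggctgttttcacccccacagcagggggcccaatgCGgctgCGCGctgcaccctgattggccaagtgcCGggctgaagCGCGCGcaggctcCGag
Sycp1 (chr3:102936101-102936300, minus strand): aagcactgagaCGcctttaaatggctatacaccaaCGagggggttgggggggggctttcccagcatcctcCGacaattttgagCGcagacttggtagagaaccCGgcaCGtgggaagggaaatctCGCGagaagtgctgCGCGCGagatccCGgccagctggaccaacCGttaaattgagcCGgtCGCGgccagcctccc
Dazl (chr17:50293637-50293836, minus strand): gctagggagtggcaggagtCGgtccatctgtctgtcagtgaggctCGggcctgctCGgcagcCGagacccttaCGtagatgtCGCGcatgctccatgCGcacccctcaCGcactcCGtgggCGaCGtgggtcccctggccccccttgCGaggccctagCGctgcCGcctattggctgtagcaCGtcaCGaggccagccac
Tex101 (chr7:24676676-24676875, minus strand): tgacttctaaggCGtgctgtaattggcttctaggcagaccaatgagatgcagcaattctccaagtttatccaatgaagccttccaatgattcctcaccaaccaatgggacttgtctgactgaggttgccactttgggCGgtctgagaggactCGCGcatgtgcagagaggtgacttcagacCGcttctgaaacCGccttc
The accessible Tdrd1 stretch held 11 CG dinucleotides, fewer than the 16 of Mael, the 16 of Sycp1 and the 17 of Dazl. The Tex101 stretch held 6.

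Within 1000 bp of the 5' end, the 10 genes had a median of 71 CpG dinucleotides, against 61 over all genes. Dazl led with 139, which placed it at percentile 92.0 of all genes, followed by Sycp1 with 101, Gdf9 with 92 and Ddx4 with 91. Mael had 75, Stk31 67, Sycp3 66, Tdrd1 63 and Hormad1 58. Tex101 had 23, at percentile 26.1, and so went against the description of the genes as having CpG promoters. Its observed to expected CpG ratio was 0.215, against a median of 0.6 over the 10 genes and 0.474 over all genes. By a scheme that grades promoters on CpG ratio and GC content in 500 bp windows, 7 of the genes had high-CpG promoters, Sycp3 and Tdrd1 were intermediate and Tex101 was low. Tex101 has another annotated start 4625 bp into the gene, with 44 CpG around it, and RefSeq's promoter table gives that start alone.

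A shared promoter peak was found at 3 of the 10 genes, Dazl, Tdrd1 and Gdf9, against 68.9% of all genes. In replicate 1 alone, 4 of the genes had a promoter peak (Dazl, Ddx4, Tdrd1 and Gdf9), against 75.8% of all genes. In replicate 2 alone, 4 had a promoter peak (Dazl, Sycp3, Tdrd1 and Gdf9), against 72.4%. Mael, Sycp1, Stk31, Hormad1 and Tex101 had none in either replicate. Hotspots, the wider accessible regions deposited beside the peaks, gave the same 3 genes in both replicates, against 70.1% of all genes. The count was also 3 when the shared peak had to lie nearer to an annotated start of the gene itself, coding or noncoding, than to one of another protein-coding gene (65.9% of all genes) or near the gene's 5' end (64.3%). Near starts of protein-coding transcripts it was 2, with Gdf9 lost, against 67.5%. The group has 1 condition and the genes were proposed with results known, so these counts were not tested.

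Genes of like CpG content gave a higher background than all genes together. In all, 12424 genes had at least 50 CpG, and 9 of the 10 germline genes were among them. Of the 12424, 195 (1.57%) had no promoter peak in either replicate, and 4 of the 9 germline genes were in that state (Mael, Sycp1, Stk31 and Hormad1). At Sycp1, 1403 genes had a CpG count within 5 of its own, 98.8% of them had a shared promoter peak, and 1 gene among the 1403 had no peak in either replicate. Among the 1734 genes near Mael in CpG count 96.5% had a shared peak, and among the 1665 near Stk31 94.0%. At the 1428 genes near Hormad1 the share was 92.2%. Tex101 was different at its 5' end, where 37.4% of its 2378 neighbours in CpG count had a shared promoter peak and 42.3% had none in either replicate. A 5' end without a peak is thus common at its 23 CpG. This does not hold for its other start, with 44 CpG. A shared promoter peak was present at 56.1% of genes in the CpG decile from 28 to 43 and at 85.2% in that from 43 to 61.

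**Figure D1:**
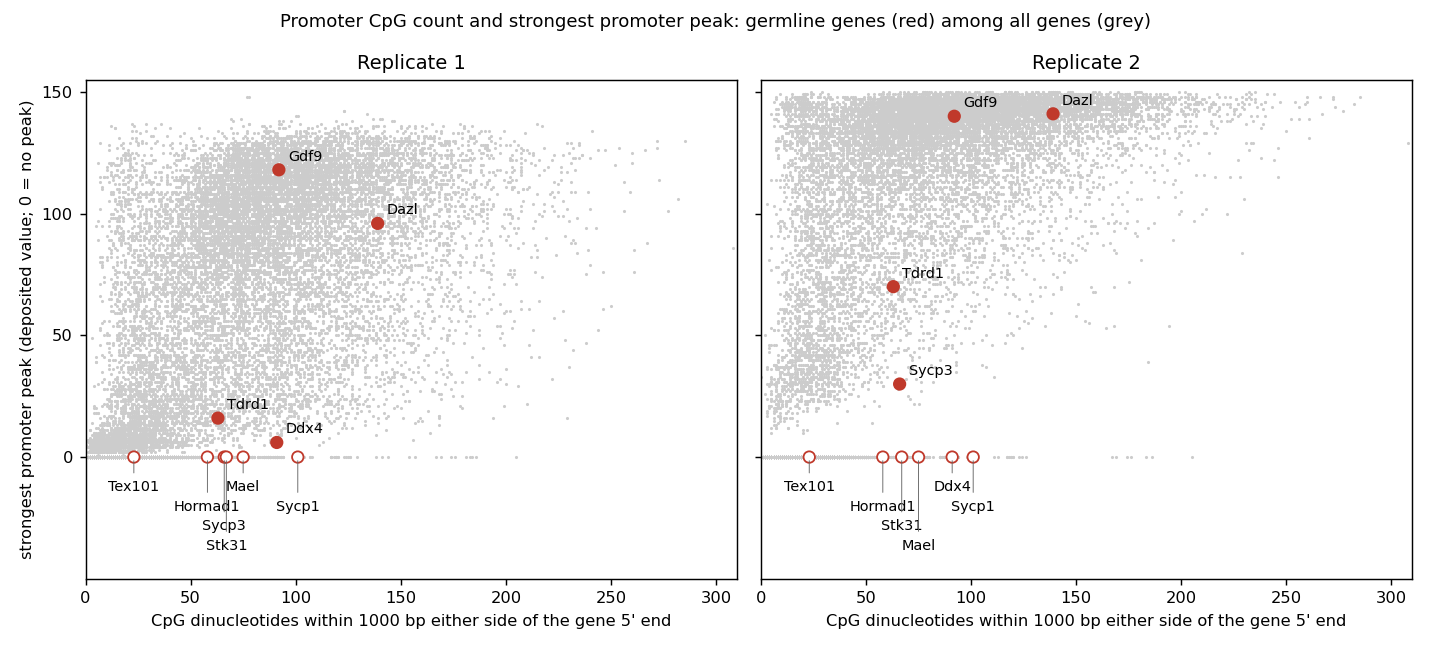
Strongest promoter peak (vertical axis, deposited value, with 0 for no peak) against the number of CpG dinucleotides within 1000 bp of the gene 5' end (horizontal axis), in replicate 1 (left) and replicate 2 (right). Red circles are the 10 germline genes, filled where a peak was called, and grey points are all protein-coding genes. Dazl and Gdf9 lie among the genes of like CpG count, while Sycp1, Mael, Stk31 and Hormad1 lie on the zero line in both replicates.

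Repeats within the promoters were also counted, since reads in repeats are hard to place. Masked repeat bases made up 4.39% of the 250 bp either side of the 5' end at Mael, 4.59% at Sycp1 and 0.0% at both Stk31 and Hormad1. The median over genes with at least 50 CpG was 4.79%, and Tdrd1 and Gdf9, which had shared peaks, stood at 4.59% and 5.39%. Over 1000 bp either side the share was 8.4% at Sycp1, 11.4% at Mael and 12.7% at Tdrd1, near the median of 11.3% for genes with at least 50 CpG. It was higher at Tex101 (22.8%), Stk31 (24.0%) and Hormad1 (36.0%). The part of repeats in the missing peaks of any of these genes was not tested.

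Dazl encodes an RNA-binding protein that controls translation in germ cells. On the minus strand of chromosome 17 (50279395 to 50293636), it had its strong peak inside the gene and not at its 5' end. The peak spanned 50292756 to 50292905 in both replicates, with values of 96 and 141, at percentiles 99.0 and 98.1 of all peaks of the replicate. Its centre lay 806 bp into the gene and 62 bp from an internal start at 50292892 that opens a protein-coding transcript. The hotspots around it were 970 and 1254 bp wide, and both reached the cap of 100 on the -log10 q scale. Genes within 5 CpG of Dazl had a median strongest peak of 104 and 141, so the Dazl values were near those of an ordinary promoter of this composition.

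At the Dazl 5' end itself, a peak was called in replicate 2 alone. It spanned 50293616 to 50293765, had a value of 34, at percentile 19.5 of that replicate, and lay 54 bp from the 5' end in a hotspot with a -log10 q of 2.79. When promoter windows were narrowed to 500 bp around the 5' end alone, Dazl no longer had a shared peak, and the count of genes with one was 2, against 61.7% of all genes. The 200 bases before the internal start are printed for comparison with those of the 5' end above, with CG in capitals.
Dazl internal start (chr17:50292893-50293092, minus strand): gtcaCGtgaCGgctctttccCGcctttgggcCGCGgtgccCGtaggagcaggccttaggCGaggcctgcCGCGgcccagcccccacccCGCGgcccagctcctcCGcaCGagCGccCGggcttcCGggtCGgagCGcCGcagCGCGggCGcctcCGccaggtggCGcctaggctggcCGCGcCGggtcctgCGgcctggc
They held 28 CG dinucleotides and a GC content of 79.0%, against 17 and 67.5% before the 5' end. Accessibility alone does not show which of the Dazl starts, if any, was transcribed.

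Ddx4, the germ cell RNA helicase also called Vasa (chromosome 13, 112598333 to 112652475, minus strand), had promoter peaks in replicate 1 alone. They had values of 6 and 5, close to the median of 6 over all peaks of that replicate, and lay in hotspots with -log10 q of 2.87 and 3.14. The stronger one, at 112652296 to 112652445, covered 27 CpG in 150 bp. Replicate 2 had no peak within 1000 bp. The nearest shared peak lay 8235 bp away, at the promoter of the neighbouring gene Slc38a9, which encodes a lysosomal amino acid transporter, and had values of 118 and 145. Among 1583 genes near Ddx4 in CpG count, 97.2% had a shared promoter peak.

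Tdrd1 encodes a Tudor domain protein of the piRNA pathway, in which short RNAs silence transposons in germ cells. On the plus strand of chromosome 19 (56826209 to 56870012), it was the only gene of the 10 with a shared peak on the first base of a coding transcript at its 5' end. The peak spanned 56826116 to 56826265 in both replicates and had values of 16 and 70, at percentiles 84.5 and 69.5. It held 18 CpG and was 71.3% GC, and its hotspots were 184 and 238 bp wide with -log10 q of 2.36 and 5.4. Genes near Tdrd1 in CpG count had a median strongest peak of 89 and 136, so its peak was low for its composition in both replicates. In bulk tissue a promoter accessible in few cells and one weakly accessible in many cannot be told apart.

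Mael, the piRNA pathway gene for maelstrom (chromosome 1, 166201201 to 166238747, minus strand), had no peak within 1000 bp of either annotated start. The nearest shared peak lay 5743 bp from its 5' end, with a replicate 2 value of 59. Stk31, a germ cell gene for a protein with Tudor and kinase domains (chromosome 6, 49395604 to 49469501, plus strand), had none at its starts either. Its first shared peaks lay in an intron, 2046 bp into the gene with values of 18 and 83, and 2926 bp into the gene with values of 30 and 87. Both held 0 CpG, unlike the promoter, where 67 were counted. Windows of 2000 bp brought the first of them in and raised the count of genes with a shared promoter peak to 4, against 71.2% of all genes.

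The synapsis and chromosome axis genes Sycp1, Sycp3 and Hormad1 had no shared promoter peak. Sycp1 encodes the transverse filament of the synaptonemal complex, which joins paired chromosomes in meiosis. On chromosome 3 (102818499 to 102936100, minus strand) its nearest shared peak lay 2270 bp from the 5' end, with values of 27 and 69. Sycp3, which encodes a protein of the lateral elements of that complex (chromosome 10, 88459569 to 88473236, plus strand), had a single peak in replicate 2. That peak had a value of 30, at percentile 11.8, lay 1039 bp upstream at the edge of the window in an intron of Chpt1, and was lost with a 500 bp window. Hormad1 encodes a protein of the meiotic chromosome axis (chromosome 3, 95559677 to 95587671, plus strand) and its nearest shared peak lay 5447 bp away. Its neighbours Golph3l and Ensa had promoter peaks of 120 and 148, and of 124 and 149, in the same window of 50 kb either side.

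Gdf9 encodes a growth factor that oocytes secrete to the follicle cells around them. On the plus strand of chromosome 11 (53431023 to 53437904), it had the highest replicate 1 promoter value of the 10 genes, and this peak was shared with another gene. Values were 118 and 140, at percentiles 99.7 and 97.8, and the hotspots were 1343 and 1630 bp wide at the cap of 100. The peak lay over a start of a noncoding Gdf9 transcript at 53431023, which is 192 bp from a start of Uqcrq at 53430831. Uqcrq encodes a subunit of mitochondrial complex III and is transcribed in the opposite direction. The protein-coding Gdf9 transcript starts at 53433299, 2276 bp into the gene, with 20 CpG around it, and no peak of either replicate lay within 1000 bp of that start. The stretch between the Gdf9 and Uqcrq starts and the 200 bases before the Gdf9 coding start show the difference, with CG in capitals.
Gdf9 to Uqcrq (chr11:53430832-53431022, plus strand): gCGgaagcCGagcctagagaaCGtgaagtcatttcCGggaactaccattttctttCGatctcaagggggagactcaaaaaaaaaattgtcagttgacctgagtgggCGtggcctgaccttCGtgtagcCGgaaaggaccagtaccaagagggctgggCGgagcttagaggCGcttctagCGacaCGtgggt
Gdf9 coding start (chr11:53433099-53433298, plus strand): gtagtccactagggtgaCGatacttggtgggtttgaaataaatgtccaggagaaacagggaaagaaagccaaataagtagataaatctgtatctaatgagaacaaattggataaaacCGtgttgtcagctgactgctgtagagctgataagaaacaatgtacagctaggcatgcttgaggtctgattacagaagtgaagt
The first, of 191 bases, held 12 CG dinucleotides and the second 2. A CpG count taken at the 5' end of Gdf9 therefore describes the promoter it has in common with Uqcrq.

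Tex101, a gene for a surface protein of male germ cells (chromosome 7, 24668007 to 24676675, minus strand), had no promoter peak at either start in either replicate. Its nearest shared peak lay 5995 bp from the 5' end.

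The shared peak nearest to the 5' end was a median of 3858.5 bp away for the 10 genes and 152 bp for all genes. Over genes with at least 50 CpG the median was 63 bp. The nearest shared peak was more than 2000 bp away at 7 of the 10 genes, against 32.9% of all genes. With Tex101 left out for its low CpG count it was 6 of 9, against 3.29% of genes with at least 50 CpG. Beyond 5000 bp the count was 5 of 10, against 26.6% of all genes, and 4 of 9 without Tex101, against 2.29% of genes with at least 50 CpG.

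**Figure D2:**
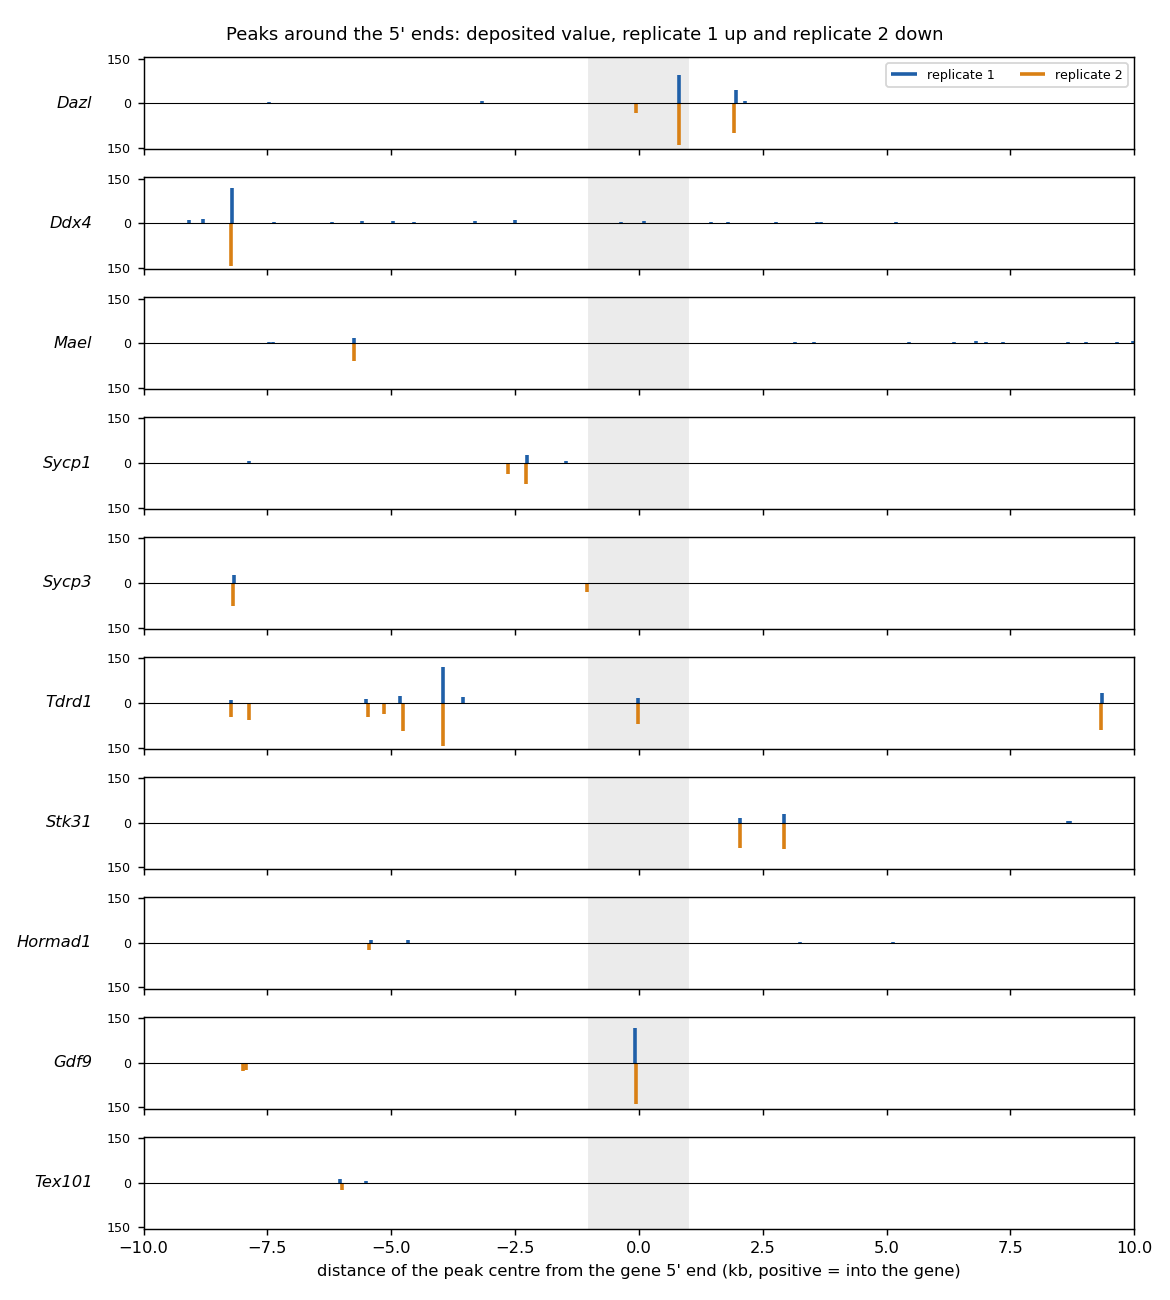
Peaks within 10 kb of the 5' end of each germline gene: the horizontal axis is the distance of the peak centre from the 5' end in kb, positive into the gene, and bars give the deposited value of replicate 1 (blue, upward) and replicate 2 (orange, downward). Grey marks 1000 bp on either side of the 5' end. Tall bars in both replicates fall in the grey band at Dazl, displaced into the gene, and at Gdf9, while Mael, Sycp1, Stk31, Hormad1 and Tex101 have none there.

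The promoter letters bound by the PRC1.6 partners were searched in the 300 bases from 250 before to 50 after each 5' end, as exact matches on both strands. The E-box CACGTG, which reads the same on both strands, was present at 7 of the 10 genes (Mael, Sycp1, Sycp3, Tdrd1, Stk31, Hormad1 and Gdf9). It was present in 7.74% of all promoters and in 10.5% of those with at least 50 CpG. The E2F letters TCCCGC were present at 5 of the 10 (Ddx4, Mael, Sycp1, Sycp3 and Hormad1), against 24.0% of all promoters and 38.0% of those with at least 50 CpG. In this window both stood together at Mael, Sycp1, Sycp3 and Hormad1, against 2.51% of all promoters and 4.17% of those with at least 50 CpG. None of these 4 genes had a shared promoter peak. Among all genes with at least 50 CpG, 518 had both in this window, and 500 of the 518 had a shared promoter peak. The E-boxes of these 4 genes and of the accessible Tdrd1 are shown with 10 bases on either side, and the capitals mark the E-box.
Mael (chr1:166238952-166238977, minus strand): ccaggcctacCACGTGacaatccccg
Sycp1 (chr3:102936179-102936204, minus strand): gagaacccggCACGTGggaagggaaa
Sycp3 (chr10:88459513-88459538, plus strand): cgttggctccCACGTGagaacgggca
Sycp3 (chr10:88459534-88459559, plus strand): gggcatggagCACGTGctaggaggcg
Hormad1 (chr3:95559610-95559635, plus strand): aagggtgcgcCACGTGccagtgacag
Hormad1 (chr3:95559647-95559672, plus strand): gcgcactgcgCACGTGctgaccggag
Tdrd1 (chr19:56826188-56826213, plus strand): gggctgcgcgCACGTGggagtaaact
Sycp3 and Hormad1 had a pair of E-boxes each. The longer palindrome TCACGTGA was in 0 of the 10 windows and in 1.1% of all promoters. Dazl had no E-box in the window of its 5' end. Ddx4, which had the E2F letters, had none in that window either. Outside it, the Ddx4 promoter peak of replicate 1 at 112652296 to 112652445 held 1 E-box, so the joint count depends on the window.

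Of the other letters, those of NRF1, GCATGCGC, were at Dazl, Stk31 and Hormad1, against 3.71% of promoters. The GC box GGGCGG was at 6 of the 10 genes against 43.0% of promoters, and CCAAT was at 4 against 39.0%. The cyclic AMP response element TGACGTCA was at 0 of the 10, against 2.43%. The CTCF core AGGTGGC was at 0 (6.33% of promoters) and its form AGGGGGC at Mael alone (11.9%). Matches of GGGCGG and TCCCGC can overlap by some letters, and none of the matches was tested for binding.

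Over other genes, promoters with and without the E-box had shared peaks at similar rates. Of promoters with at least 50 CpG, 96.1% of those with the E-box and 96.8% of those without it had a shared peak. In the other 3 germline lists, the E-box was at 13 of 60 genes (21.7%). It was at 6 of the 27 with a shared peak (22.2%) and at 7 of the 33 without one (21.2%). The E2F letters TCCCGC were at 15 of the 60, against 24.0% of all promoters. Both stood together at 3 of the 60, against 2.51% of all promoters and 4.17% of those with at least 50 CpG. Of the 27 with a shared peak 0 had both, and of the 33 without one 3 had both.

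Those 3 lists hold further genes of the same programmes, chosen by function but with earlier results of these data known. Of 22 piRNA and germ cell RNA genes, 9 had a shared promoter peak (40.9%, against 68.9% of all genes) and 9 had none in either replicate. Tdrkh (130 and 146), Tdrd7 (102 and 143), Tdrd5 (51 and 125), Pld6 (41 and 103) and Henmt1 (25 and 89) ranked highest, and the Henmt1 peak lay nearest to a start of another gene, Gm9857. Tdrkh and Pld6 encode mitochondrial proteins of piRNA processing. Fkbp6, with 68 CpG, had no promoter peak in either replicate, nor had Sohlh1 (51 CpG), Piwil2 (50), Asz1 (50) and Gpat2 (44). Piwil2 encodes a PIWI protein that carries piRNAs.

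Of 28 meiosis genes, 17 had a shared promoter peak (60.7%) and 9 had none in either replicate. Among the 5 highest were Stag3 (130 and 149), which encodes a meiotic cohesin subunit, Msh5 (115 and 148), which encodes a crossover factor, and Prdm9 (116 and 146), which encodes the histone methyltransferase that marks recombination sites. The others were Zcwpw1 (128 and 147) and Tex14 (115 and 140), whose strongest peaks lay nearest to starts of Mepce and Rad51c. Each also had a shared promoter peak nearest to a start of its own. Sycp2, the partner of Sycp3 in the lateral elements, had 76 CpG and no promoter peak in either replicate. Slc25a31 (73 CpG), Tex12 (67), Tex11 (66) and Tex19.1 (52) had none either. Of 10 oocyte genes 1 had a shared promoter peak, Zar1 (24 and 75), and the zona pellucida genes Zp1, Zp2 and Zp3 were among 6 with none in either replicate, together with Bmp15 and Oosp1, the other genes named. The oocyte genes had a median of 27 CpG, and 8 of the 10 had low-CpG promoters. Of all genes with low-CpG promoters, 31.7% had a shared promoter peak.

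With the 10 genes and these lists joined, 70 germline genes were counted and 30 (42.9%) had a shared promoter peak. Genes and lists alike were chosen with earlier results known, so the shares below were not tested and are no independent support. Below 25 CpG the count was 0 of 8, against 17.6% of all genes in that range. From 25 to 49 CpG it was 5 of 17 (29.4%, against 57.7%), and from 50 to 74 it was 7 of 22 (31.8%, against 92.5%). At 75 CpG or more it was 18 of 23 (78.3%, against 98.3%). The share was below that of all genes in each range, with the widest gap from 50 to 74 CpG, where Sycp3, Tdrd1, Stk31 and Hormad1 also lie.

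**Figure D3:**
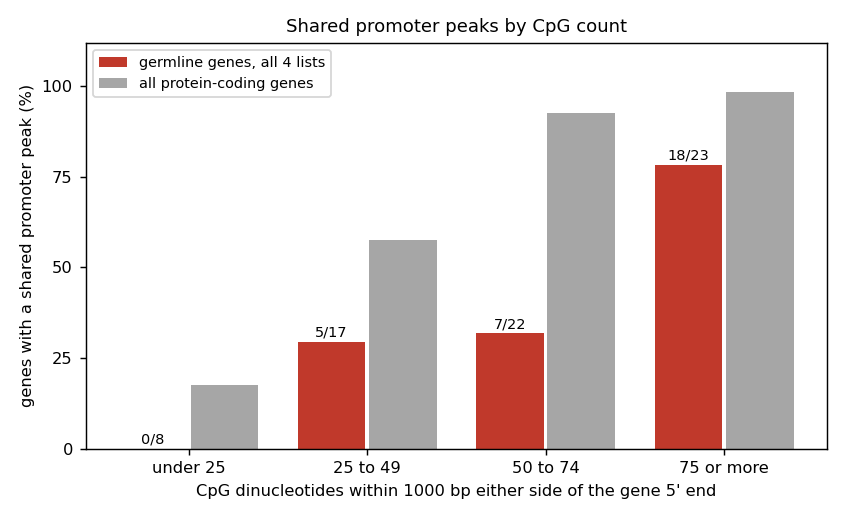
Share of genes with a shared promoter peak (vertical axis, percent) by CpG count within 1000 bp of the 5' end (horizontal axis), for 70 germline genes of 4 lists (red, with counts above the bars) and all protein-coding genes (grey). Red bars are lower in each range, at 31.8% against 92.5% from 50 to 74 CpG.

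Genes for the repressors themselves were open at the rate of CpG-rich genes in general. All 21 genes of PRC1.6, DNA methylation and H3K9 methylation examined had a shared promoter peak, with median strongest values of 105 and 140 and a median of 121 CpG. In the CpG decile that holds this median, from 107 to 132 CpG, 98.9% of all genes had one. Max (126 and 148), L3mbtl2 (113 and 146), Rnf2 (107 and 146), Cbx3 (126 and 146) and Uhrf1 (113 and 149) ranked highest, and the strongest Cbx3 peak lay nearest to a start of Hnrnpa2b1, although another shared promoter peak lay nearest to a start of Cbx3. Uhrf1 encodes the factor that brings the maintenance methyltransferase Dnmt1 to replicated DNA. An accessible promoter does not measure the activity of the protein.

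Away from promoters, the counts of shared peaks were close to those of other genes. Distal peaks were shared peaks centred over 1000 bp from every annotated start of a protein-coding gene, between 50 kb before and 50 kb after the gene. The 10 genes had a median length of 32800 bp, against 17433 bp over all genes, so their windows were wider at the median. They had a median of 7 such distal peaks, with a range of 3 to 21, against 6 over all genes. With windows of 20 kb the order turned, at 2.5 against 3, and with windows of 100 kb it was 11 against 12. In replicate 1 the median was 32 against 21, and in replicate 2 it was 11 against 10. Mael had 21, against a median of 7 for genes of the same length decile, at percentile 96.6 of that decile. Sycp1 had 5 against 19, at percentile 8.17. The rest went both ways against the median of their length decile. Tdrd1 had 12 against 7, Tex101 9 against 5, Dazl 7 against 6 and Gdf9 7 against 4. Stk31 had 7 against 10, Sycp3 5 against 6, Ddx4 3 against 7 and Hormad1 3 against 6.

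Few of the distal peaks lay in the germline genes themselves, and gene bodies held few over all genes too. With gene bodies alone, the median was 0.5 for the 10 genes and 0 for all genes. Of 79 in the 10 windows, 7 were inside the gene concerned, 43 were inside another annotated gene and 29 were intergenic. The 7 were 2 each in Tdrd1 and Stk31 and 1 each in Dazl, Mael and Sycp1. Around Mael, 11 of the 21 were in introns of Ildr2 and 5 in introns of Gpa33, which lie on either side of it. The Dazl peak, at 50291636 to 50291785 with values of 44 and 101, held 0 CpG and the CTCF core letters AGGTGGC. The median replicate 2 value of the 79 was 69, against 60 over 136944 shared distal peaks of all genes.

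**Figure D4:**
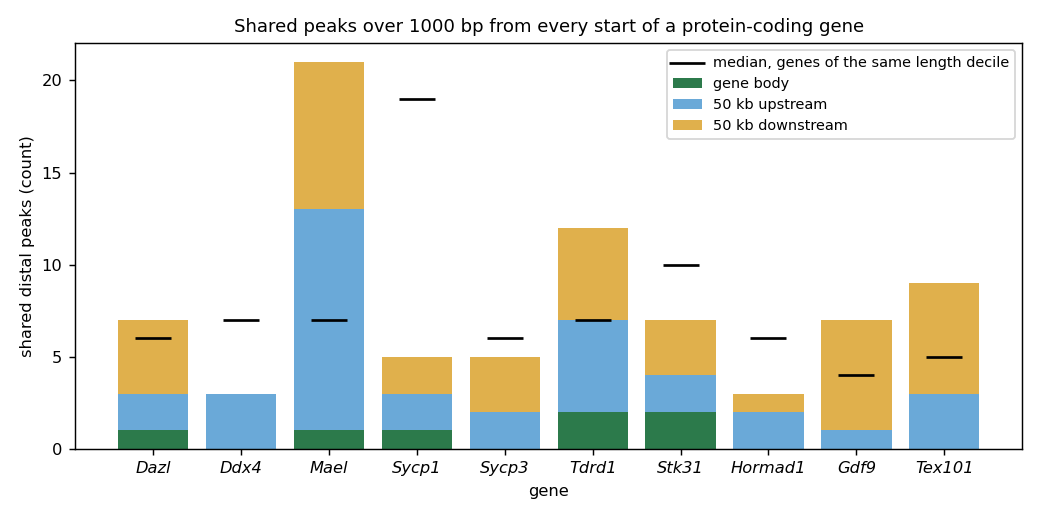
Shared distal peaks (vertical axis, count) around each germline gene, split into gene body (green), 50 kb upstream (blue) and 50 kb downstream (yellow). Black dashes are the median of genes in the same decile of gene length. Mael, at 21, lies far above its dash, Sycp1, at 5, lies far below, and gene bodies hold 0 to 2 peaks each.

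The accessible starts in these windows mostly belonged to other genes. Of 27 shared peaks centred within 1000 bp of a start of a protein-coding gene, 3 lay nearest to a start of one of the 10 genes and 24 nearest to a start of another gene. The windows held starts of 0 (Dazl) to 8 (Gdf9) other protein-coding genes. This split was not counted over all genes, so it is not shown to be particular to the germline genes. Tdrd1 shows the contrast within one window, with its own peak at 16 and 70 and that of Ccdc186, at position -3959 from the Tdrd1 5' end, at 122 and 145.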

How the data were processed

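DNase-seq peak lists and hotspot lists of 2 replicates were used, 1 of each per replicate. The deposited peak signal values are whole numbers of 1 to 150 whose scaling is not stated, and the deposited hotspot values are -log10 q from 1.3 to a cap of 100. Per the labels, the files are on mm10. Which aligner and peak caller were used is not given in the sources used here. Read depth per sample is unknown.

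Genes were the named protein-coding genes of GENCODE M21 on chromosomes 1 to 19, X and Y, and the sequence was GRCm38.p6. The build was checked on 59255 start codons of the annotation, of which 99.9% were ATG. Peaks were 150 bp wide in nearly all cases. Coordinates are 1-based. CpG was counted within 1000 bp of the 5' end. In the grading of promoters, 500 bp windows from 1300 bp before to 200 bp after the 5' end were high with a CpG ratio above 0.75 and GC above 55%, and a promoter was low with no ratio above 0.48. This grading, the 250 bp window and the 500 bp window at 5' ends alone were chosen after seeing the data. The overlap step was tested on simulated data. Python 3.11.15, numpy 2.4.6, pandas 2.3.3 and matplotlib 3.10.9 were used.

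The genes and lists (piRNA and germ cell RNA, meiosis, oocyte and repressor genes, and midbrain markers) were chosen with earlier results of these data known. Six6os1 was not found under that name. All 10 genes were named. In each other list, up to 5 genes with the highest mean percentile of the strongest shared promoter peak and up to 5 with the most CpG and no peak were named. Genes in surrounding windows, and E2F6, Dnmt3a and Dnmt3b as background, were named outside this rule; those in windows were chosen after their values were seen. No test between groups was possible with 1 group. Alternatives changed the promoter window, the starts used, the overlap, the replicate, the peak value threshold, the distal window and the CpG measure. RefSeq's promoter table held 9 of the 10 genes, without Gdf9.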

Additional observations from a re-analysis of the deposited data

How the results depend on the processing

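The count of germline genes with a shared promoter peak was 3 and ranged from 2 to 4 over all 14 alternatives. It was 4 with windows of 2000 bp (71.2% of all genes), where Stk31 was added, and 4 when replicate 1 or replicate 2 was left out, where a peak of the remaining replicate sufficed. It was 2 with starts of protein-coding transcripts alone (67.5% of all genes), where Gdf9 was lost, and 2 with 500 bp windows at 5' ends alone (61.7% of all genes), where Dazl was lost. The median number of distal peaks, 7 with shared peaks, ranged from 11 to 32 when a replicate was left out, against 10 and 21 over all genes. The median of 7 stood above the 6 of all genes, but it fell below that of all genes with 20 kb windows (2.5 against 3), with 100 kb windows (11 against 12) and with peaks near starts included (9 against 12). It was 0.5 against 0 with gene bodies alone. The median CpG count of 71 became 60 within 500 bp (41 over all genes) and 72.5 with the richest start of each gene (69 over all genes), and the ratio of observed to expected CpG was 0.6 (0.474 over all genes). Of 60 alternatives for the strongest promoter peak of single genes, 56 gave the same value and 4 did not: 2000 bp windows brought in peaks of Sycp1 (8 in replicate 1) and Stk31 (18 and 83), and 500 bp windows removed the Sycp3 peak of replicate 2. No paired analysis was possible because there was 1 group. Read depth is unknown, so a weak promoter such as that of Ddx4, called in replicate 1 alone, cannot be placed above or below detection in replicate 2.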

Other observations

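At the internal start of Dazl, which carries the strong peak, the E-box CACGTG was present at positions -218 and -198 from that start. The second stood within TCACGTGA. They lay 200 and 180 bases beyond the edge of the peak. The peak itself held 1 match to the E2F letters TCCCGC, searched on both strands. Both E-box and E2F letters thus stood near this accessible start. Over all genes with at least 50 CpG, promoters with TCACGTGA in the window of the 5' end had a shared promoter peak in 99.5% of 206 cases.

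Promoters with at least 50 CpG that had no peak in either replicate held the E2F letters TCCCGC in 39 of 195 cases, against 4624 of the 12013 (38.5%) with a shared peak. The 4 germline genes Mael, Sycp1, Stk31 and Hormad1 are among the 195, and 3 of these 4 had the letters. TCCCGC holds a CG itself, and the groups were not matched in CpG count. Of the 195, 65 had at least 75 CpG, against 8957 of all 12424 genes with at least 50. The cause of the difference was not tested.

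The share of genes without a promoter peak in either replicate fell as CpG rose. It was 195 of 12424 (1.57%) with at least 50 CpG, 65 of 8957 (0.726%) with at least 75 and 19 of 5326 (0.357%) with at least 100. Mael and Sycp1 are among the 65 and Sycp1 is among the 19.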
